A study of Mus musculus with 16 samples.

Results

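Transcripts of the lung's epithelial lining were counted in RNA from macrophages that had been washed out of mouse airways. The 9 genes described here are the surfactant protein genes Sftpa1, Sftpb, Sftpc and Sftpd and 5 other genes expressed in alveolar epithelium, Cldn18, Aqp5, Gprc5a, Emp2 and Ehf. They are 9 of the 23159 gene symbols in the deposited count table, taken by symbol and chosen by their counts, since reads of these genes were found in the lavage RNA. Their presence is therefore not a result, and since earlier comparisons of the same libraries were known at the time of choice, the tests given here state size and error and lend no independent support.

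Macrophages were isolated from bronchoalveolar lavage fluid, a wash of the airways and alveoli, and their mRNA was sequenced in 4 groups of 4 libraries. The groups were mice lacking Toll-like receptor 3 (TLR3, an endosomal sensor of double-stranded RNA) sampled following pneumonia (TLR3-KO injured), TLR3-KO control mice, wild-type mice sampled following pneumonia (WT injured) and WT control mice. Per the labels' protocols, inoculation was with 500 CFU of Klebsiella pneumoniae (strain 43816, serotype 2) in 30 µl, or with saline, into the hypopharynx under isoflurane, although control libraries carry the treatment label none. The sources used here do not give how Tlr3 was inactivated, the age of the mice, the time after infection or whether libraries stand for separate mice, so that p-values measure the spread between libraries, which may be technical.

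Pulmonary surfactant is a film of phospholipid and protein that lowers surface tension at the air-liquid interface of the alveolus. Alveolar type 2 cells make it, flat type 1 cells cover most of the gas-exchange surface, and alveolar macrophages take up and degrade spent surfactant. SP-B and SP-C, from Sftpb and Sftpc, are hydrophobic proteins that spread the lipid film, while SP-A and SP-D, from Sftpa1 and Sftpd, are collectins that bind microbial carbohydrates.

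The promoter windows of 3 genes are shown because Sftpb and Cldn18 stood furthest apart between the genotypes following pneumonia, with Sftpa1 set beside them as a collectin gene, and because the cores searched for belong to factors known from alveolar epithelium. The sequences are from RefSeq (GRCm38.p6), read 5′ to 3′ on the strand of the gene, and run from 250 bases before to 50 bases after a start of transcription. Windows were on hand for 5 of the 9 genes (6 windows, of which Cldn18 has 2). Capitals mark matches on either strand to CTCAAG or CAAGTG (cores bound by NKX2-1, the homeodomain factor of lung epithelium), TGTTTNC (a forkhead core) or GGAAGT (an ETS core, the class of factor that Ehf encodes).
Sftpa1 (chr14:41131538-41131837, plus strand): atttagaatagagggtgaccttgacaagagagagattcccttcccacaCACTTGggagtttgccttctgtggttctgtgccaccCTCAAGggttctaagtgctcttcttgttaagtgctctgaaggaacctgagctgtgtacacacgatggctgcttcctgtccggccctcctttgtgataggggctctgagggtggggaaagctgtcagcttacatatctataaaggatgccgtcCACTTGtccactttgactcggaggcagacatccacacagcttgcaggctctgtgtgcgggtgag
Sftpb (chr6:72304360-72304659, plus strand): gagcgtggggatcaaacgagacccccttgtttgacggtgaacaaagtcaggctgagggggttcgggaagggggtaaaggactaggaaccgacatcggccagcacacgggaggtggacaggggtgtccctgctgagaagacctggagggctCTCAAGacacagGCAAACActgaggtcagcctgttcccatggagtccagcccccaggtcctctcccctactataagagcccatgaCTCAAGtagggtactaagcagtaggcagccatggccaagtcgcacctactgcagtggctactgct
Cldn18 (chr9:99717218-99717517, minus strand): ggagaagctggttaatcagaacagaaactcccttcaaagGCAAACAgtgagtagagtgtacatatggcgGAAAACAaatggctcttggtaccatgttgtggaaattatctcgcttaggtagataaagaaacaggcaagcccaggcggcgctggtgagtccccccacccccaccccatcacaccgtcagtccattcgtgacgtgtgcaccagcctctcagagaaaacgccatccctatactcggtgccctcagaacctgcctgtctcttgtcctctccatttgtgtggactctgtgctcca
The Sftpa1 window held CTCAAG once and CAAGTG at 2 places. The Sftpb window held CTCAAG at 2 places, 100 and 15 bases before the start, and 1 forkhead core. The Cldn18 window shown held 2 forkhead cores. The other Cldn18 window, which is not printed, held CAAGTG and also 2 forkhead cores. Over the 6 windows, CTCAAG occurred in 2, CAAGTG in 2, TGTTTNC in 3 and GGAAGT in 2. Among all 32851 windows of the same length, 15.9% held CTCAAG, 13.6% CAAGTG, 20.5% TGTTTNC and 23.8% GGAAGT, so such short words are common, and no 2 of the matches shown overlap.

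Library totals lay between 29667102 and 59640251 counts, with TLR3-KO injured 3 the shallowest, and 12455 genes passed the filter on low counts, all 9 transcripts among them. Ehf passed only through TLR3-KO injured and WT control libraries, the groups where it was highest. It held at most 5 counts in any TLR3-KO control and 3 in any WT injured library. The filter thus favoured a difference for Ehf, which is counted among the 9 throughout, and its fold changes lend no support. Tlr3 followed the genotype labels, at 0.491 ± 0.135 CPM (counts scaled to library totals of 1e6) in TLR3-KO injured and 0.529 ± 0.211 CPM in TLR3-KO control libraries, against 3.44 ± 0.850 CPM in WT injured and 3.48 ± 1.23 CPM in WT control libraries (SD, n = 4 each). The cells carried the markers of alveolar macrophages, whose 19 listed genes summed to between 31757 and 40272 CPM in every library. Chi3l3 was the most abundant of them, at 18167 CPM on average over all libraries. The series title names male mice, but TLR3-KO controls 1, 2 and 3 held Xist, a transcript of female cells, at 20.3 CPM or more, while no other library exceeded 0.230 CPM. Ddx3y, a gene of the Y chromosome, stood near 0 in TLR3-KO control 1 (0.521 CPM) and control 2 (0.589 CPM). Its level was 10.04 CPM in control 3, which held both transcripts, and 83.1 CPM in control 4.

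The 9 transcripts were a trace of this RNA. Together they took 40.8 ± 14.3 CPM in TLR3-KO injured, 18.9 ± 10.7 CPM in TLR3-KO control, 10.3 ± 1.94 CPM in WT injured and 17.3 ± 4.88 CPM in WT control libraries (SD, n = 4 each). The sum ranged over 23.5 to 57.2 CPM in TLR3-KO injured libraries and over 8.45 to 12.04 CPM in WT injured libraries, so these groups did not overlap, while the ranges of the controls overlapped each other. In bulk RNA of this kind, fewer cells of a type and less RNA per cell cannot be told apart.

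Compared per kilobase of merged exons (GENCODE M21 models on mm10), Sftpc was the highest of the 9 in every group, at 9.98 ± 2.48 CPM per kb in TLR3-KO injured, 6.59 ± 5.08 in TLR3-KO control, 3.63 ± 1.02 in WT injured and 6.54 ± 1.64 in WT control libraries. Gprc5a and Sftpa1 came next and lay within each other's spread, at 2.79 ± 1.01 and 2.11 ± 0.910 CPM per kb in TLR3-KO injured libraries. Sftpd, Sftpb, Cldn18 and Aqp5 followed, between 1.01 and 1.46 CPM per kb in TLR3-KO injured libraries, with neighbours in that order closer than their SDs. Emp2, whose gene model is the longest of the 9 at 8644 bases, was the eighth at 0.593 ± 0.259 CPM per kb, and Ehf the lowest in every group.

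The comparison of the genotypes following pneumonia asks whether loss of TLR3 changes macrophages after bacterial injury. In this comparison all 9 transcripts were higher in TLR3-KO injured than in WT injured libraries, with no overlap of the 4 against 4 libraries for any of them. Such complete separation upward occurred in 9.14% of all genes tested. By edgeR's quasi-likelihood test with Benjamini-Hochberg adjustment over all 12455 genes, 7 of the 9 rose at an adjusted p under 0.05, where 0.377% of all genes did. The median log2 fold change of the 9 was 2.27, against -0.01 over all genes tested.

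Sftpb, whose product is essential for a working surfactant film, lay at 2.42, 2.49, 3.07 and 1.25 CPM in TLR3-KO injured libraries 1 to 4 and at 0.310, 0.331, 0.251 and 0.397 CPM in WT injured libraries 1 to 4. The lowest TLR3-KO injured library, number 4, still stood clear of the highest WT injured library. The fitted difference was a log2 fold change of 2.79 (SE 0.41, edgeR adjusted p = 0.00543), or 6.92-fold.

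Sftpa1 was measured at 4.75, 7.12, 9.07 and 3.15 CPM in TLR3-KO injured libraries and at 1.84, 2.13, 2.40 and 1.46 CPM in WT injured libraries. Its rise was the smallest of those called, at a log2 fold change of 1.60 (SE 0.33, edgeR adjusted p = 0.0403). Sftpd, the other collectin, lay at 3.29, 4.14, 4.85 and 1.85 CPM in TLR3-KO injured libraries, against 0.466, 1.02, 1.01 and 0.491 CPM in WT injured libraries. Its log2 fold change was 2.22 (SE 0.44, edgeR adjusted p = 0.0350). Both genes lie on chromosome 14, at chr14:41131782-41136452 on the plus strand for Sftpa1 and chr14:41172214-41185149 on the minus strand for Sftpd (mm10). In both, TLR3-KO injured 3 was the highest library and TLR3-KO injured 4 the lowest of its group, as in all the other transcripts except Ehf.

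Sftpc, the transcript most specific to type 2 cells, did not pass edgeR's test in this comparison. It stood at 10.02, 11.5, 12.8 and 6.89 CPM in TLR3-KO injured libraries and at 3.29, 4.20, 4.96 and 2.55 CPM in WT injured libraries. The groups did not overlap, but the fitted log2 fold change of 1.44 (SE 0.45) had an adjusted p of 0.153 in edgeR. DESeq2 and an edgeR fit of these 2 groups alone both called it.

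Sftpc thus made up a smaller share of the 9 transcripts in TLR3-KO injured libraries, at 27.3, 25.2, 22.4 and 29.3% of their summed counts, than in WT injured libraries, at 37.4, 35.3, 41.2 and 30.2%. In TLR3-KO control libraries the shares were 27.3, 20.5, 39.3 and 41.2%, and in WT control libraries 38.3, 37.4, 37.7 and 44.6%. The ranges of the injured groups did not overlap, whereas the TLR3-KO controls held shares like both. There were 4.14 to 5.50 Sftpc counts per Sftpb count in TLR3-KO injured libraries and 6.43 to 19.7 in WT injured libraries.

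Among the structural and membrane genes of the alveolar wall, Cldn18, the claudin that seals tight junctions between alveolar epithelial cells, lay at 4.54, 5.58, 7.11 and 2.04 CPM in TLR3-KO injured libraries and at 0.466, 0.718, 0.731 and 0.756 CPM in WT injured libraries. No WT injured library reached the lowest TLR3-KO injured one. The log2 fold change of 2.81 (SE 0.40, edgeR adjusted p = 0.00403) was the largest of the 9, and its p was the ninth smallest among all genes tested. An antisense gene, Gm16004, overlaps the Cldn18 locus but shares no exon base with it in the annotation.

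Aqp5, a water channel of type 1 cells, lay at 2.28, 2.56, 3.88 and 1.74 CPM in TLR3-KO injured libraries and at 0.362, 0.801, 0.526 and 0.435 CPM in WT injured libraries (log2 fold change 2.27, SE 0.45, edgeR adjusted p = 0.0350). Emp2, a tetraspan membrane protein of type 1 cells, lay at 3.91, 5.67, 8.02 and 2.92 CPM in TLR3-KO injured libraries and at 0.802, 1.49, 1.12 and 1.13 CPM in WT injured libraries (log2 fold change 2.14, SE 0.43, edgeR adjusted p = 0.0390). For both genes every TLR3-KO injured library was above every WT injured one.

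Gprc5a, an orphan receptor of alveolar epithelium known as a lung tumour suppressor in mice, was measured at 5.13, 6.53, 8.29 and 3.32 CPM in TLR3-KO injured libraries. In WT injured libraries it lay at 1.24, 1.13, 1.03 and 1.21 CPM, with the lowest coefficient of variation of the 9 in that group, and the log2 fold change was 2.30 (SE 0.40, edgeR adjusted p = 0.0176). The 4 WT injured libraries spanned a range that was small beside the gap to the TLR3-KO injured ones.

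Ehf, an ETS-family transcription factor of epithelial cells, was counted by few reads. TLR3-KO injured libraries held 17, 10, 3 and 13 Ehf counts and WT injured libraries 1, 3, 1 and 1. Pooled over each group, 43 against 6 counts gave a ratio of 7.56 in CPM, with an exact 95% interval of 3.20 to 21.7 that covers counting error only. Across libraries the fitted log2 fold change of 2.73 (SE 0.71) was not called (edgeR adjusted p = 0.0939).

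**Figure D1:**
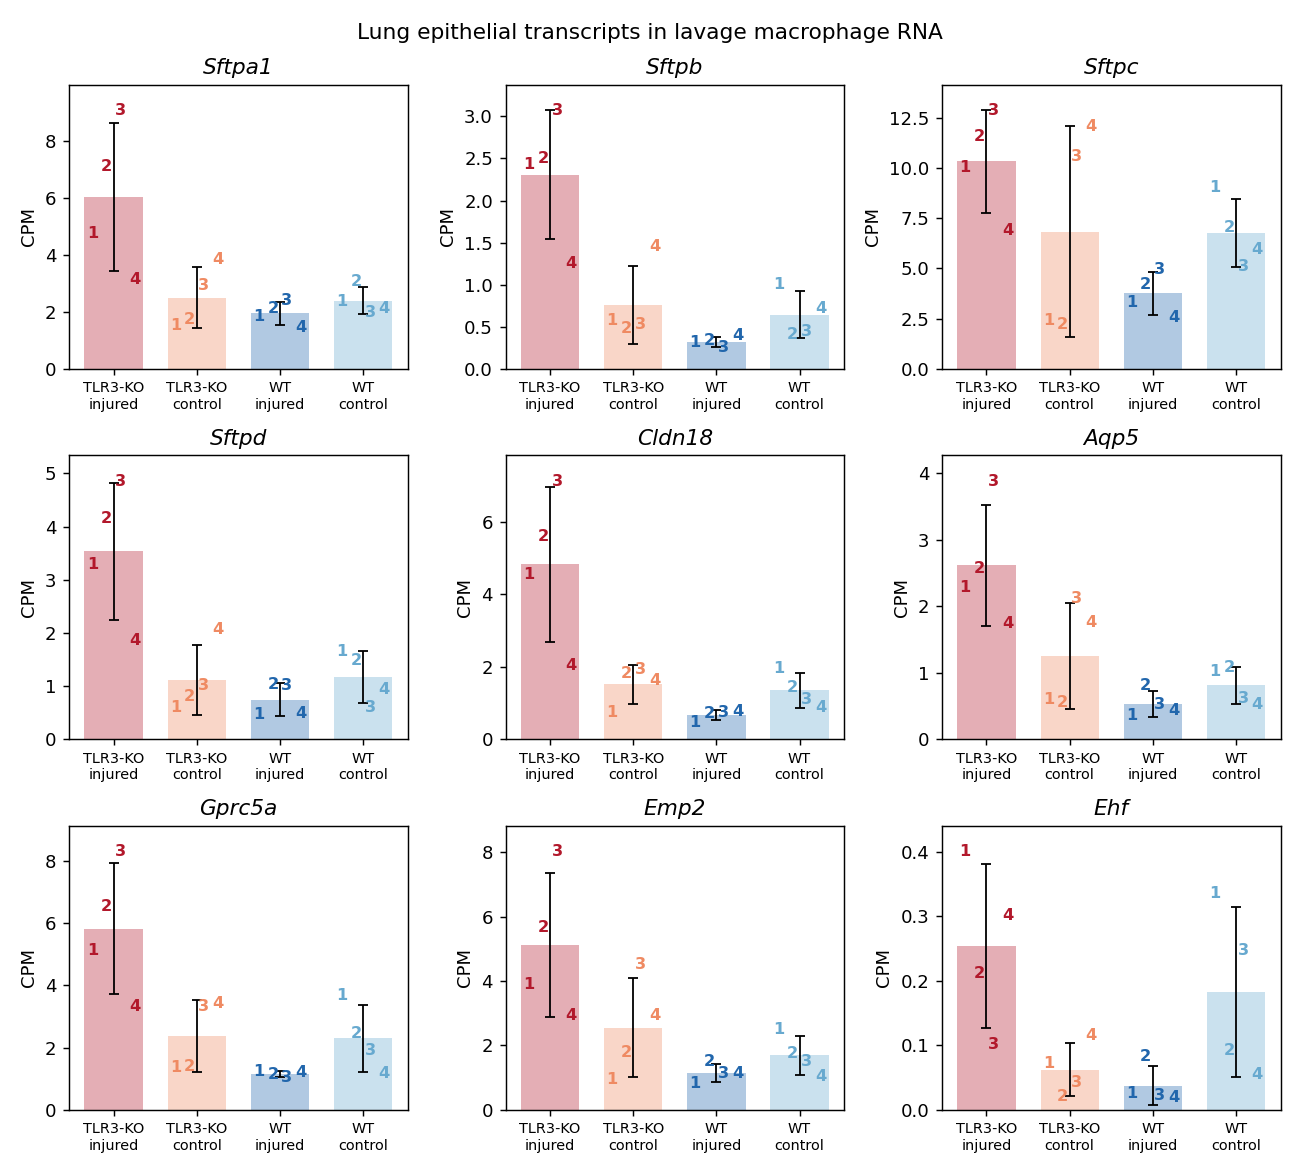
Levels of the 9 transcripts in CPM of the library total (vertical axes, each from 0) in the 4 groups; bars are means, error bars 1 SD over 4 libraries, and digits mark the libraries by replicate number. All TLR3-KO injured libraries lie above all WT injured libraries in every panel, and for Sftpc the TLR3-KO controls split into 2.39 and 2.21 CPM against 10.6 and 12.1 CPM.

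The number of transcripts called moved with single libraries. It was 2 without TLR3-KO injured 2 or 3 or without WT injured 1, 2 or 3, was 3 without TLR3-KO injured 1, and was 7 without TLR3-KO injured 4 or WT injured 4. Calls over all genes moved as well, from 75 in the full fit. They were 18, 16, 19 and 75 without TLR3-KO injured 1, 2, 3 and 4 in turn. Without WT injured 1, 2, 3 and 4 in turn they were 30, 17, 20 and 439. Sftpb and Cldn18 were called in each of these 8 fits.

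The comparison of injured with control mice in each genotype asks how the transcripts stood after pneumonia. In TLR3-KO mice all 9 had a positive log2 fold change, from 0.57 to 1.97 with a median of 1.25, against a median of -0.01 over all genes, but none was called (edgeR, adjusted p under 0.05, which 1.09% of all genes passed). An unadjusted p under 0.05 was reached by 8 of the 9, against 12.1% of all genes with a higher level. Cldn18 alone did not overlap, a separation found upward in 11.2% of all genes. TLR3-KO controls 1 to 3 held Xist at 20.3 CPM or more, while the TLR3-KO injured libraries held at most 0.139 CPM. Pneumonia and sex thus cannot be fully told apart in this comparison.

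Cldn18 lay at 4.54, 5.58, 7.11 and 2.04 CPM in TLR3-KO injured and at 0.735, 1.81, 1.92 and 1.61 CPM in TLR3-KO control libraries, and its log2 fold change of 1.61 (SE 0.37) had an edgeR adjusted p of 0.0502. Sftpb in TLR3-KO control libraries lay at 0.569, 0.484, 0.527 and 1.45 CPM, of which the last is within the range of TLR3-KO injured libraries, with a log2 fold change of 1.56 (SE 0.39, edgeR adjusted p = 0.0537). Sftpa1 in these controls reached 1.52, 1.73, 2.93 and 3.84 CPM, Sftpd reached 0.592, 0.800, 1.01 and 2.07 CPM, and each had an adjusted p of 0.0654. For Sftpb, Sftpa1 and Sftpd the overlap with the injured libraries came from TLR3-KO injured 4 and TLR3-KO control 4.

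Sftpc differed least in this comparison, with a log2 fold change of 0.57 (SE 0.44, edgeR adjusted p = 0.424). TLR3-KO controls 1 to 4 held it at 2.39, 2.21, 10.6 and 12.1 CPM, so controls 3 and 4 lay inside the range of the TLR3-KO injured libraries and controls 1 and 2 far below it. Aqp5 split the same controls, at 0.592, 0.547, 2.11 and 1.75 CPM, as did Gprc5a at 1.35, 1.39, 3.31 and 3.43 CPM and Emp2 at 0.948, 1.79, 4.51 and 2.94 CPM. In all, 6 of the 9 transcripts were lower in TLR3-KO controls 1 and 2 than in controls 3 and 4 without overlap, an order that 39.9% of all genes shared.

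TLR3-KO control 3, which held Xist and also Ddx3y, stood with control 4 for these 6 transcripts, while Sftpb, Cldn18 and Ehf overlapped between the pairs of controls. Beside these levels, neutrophil markers summed to 128 to 230 CPM in TLR3-KO injured and 71.5 to 102 CPM in TLR3-KO control libraries without overlap, with 8 of 9 genes higher and none called. Csf3r and Mmp8 held most of these sums, at mean levels of 68.9 and 47.3 CPM in TLR3-KO injured and 23.6 and 32.9 CPM in TLR3-KO control libraries. Retnlg was lower in TLR3-KO injured libraries (0.342 against 0.624 CPM), and Ngp and Camp did not pass the filter. Erythroid markers summed to 73.8 to 199 CPM in TLR3-KO injured and 41.4 to 494 CPM in TLR3-KO control libraries, which overlapped. With DESeq2 in place of edgeR 5 transcripts were called in TLR3-KO mice, Sftpa1, Sftpb, Sftpd, Cldn18 and Gprc5a, among 1031 over all genes. Without TLR3-KO control 2 there were 2 calls, Sftpb and Cldn18, among 1238 over all genes, and without TLR3-KO injured 4 there was 1, Cldn18, among 21.

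In WT mice the 9 transcripts all had a negative log2 fold change, from -0.42 to -2.44 with a median of -0.99, against 0.01 over all genes. None was called, as for all 12455 genes (0% in edgeR's quasi-likelihood test). By DESeq2, which called 181 genes in this comparison, none of the 9 was among them. An unadjusted p under 0.05 was reached by 5 of the 9, against 4.44% of all genes with a lower level. Sftpb, Sftpc and Cldn18 lay lower in every WT injured than in any WT control library, which held for 0.682% of all genes. Erythroid markers summed to 331 to 709 CPM in WT injured and 11.4 to 151 CPM in WT control libraries without overlap, with 6 of 6 genes higher and none called. Neutrophil markers summed to 91.1 to 311 CPM in WT injured and 49.8 to 91.3 CPM in WT control libraries, whose ranges just met.

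Sftpc stood at 3.29, 4.20, 4.96 and 2.55 CPM in WT injured and at 9.004, 7.04, 5.07 and 5.95 CPM in WT control libraries (log2 fold change -0.99, SE 0.44, edgeR adjusted p = 0.449). Cldn18 in WT control libraries lay at 1.96, 1.44, 1.11 and 0.877 CPM (log2 fold change -1.15, SE 0.39, edgeR adjusted p = 0.296), and Sftpb there at 1.01, 0.411, 0.443 and 0.713 CPM (log2 fold change -1.11, SE 0.41, edgeR adjusted p = 0.358). The gap was narrow for each, as for Sftpb between 0.397 CPM in WT injured 4 and 0.411 CPM in WT control 2. Gprc5a, at 3.67, 2.44, 1.90 and 1.15 CPM in WT controls, overlapped through WT control 4 alone.

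The lowest value of any comparison was that of Ehf, with 6 counts pooled over WT injured and 36 over WT control libraries, a ratio of 0.175 in CPM (exact 95% interval 0.0604 to 0.420, counting error only). WT control 1 held 20 of these counts. The fitted log2 fold change was -2.44 (SE 0.72, edgeR adjusted p = 0.237), and the filter on low counts favoured such a difference for Ehf.

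The WT controls also split, in the opposite order to the TLR3-KO controls. For 7 of the 9 transcripts, all but Sftpb and Ehf, WT controls 1 and 2 lay above WT controls 3 and 4, as 23.3% of all genes did. With controls 1 and 2 as the only controls, a setting chosen after seeing the data, 6 transcripts were called lower in WT injured libraries, where 1631 of all genes were called, and 4 higher in TLR3-KO injured libraries, where 83 were. With controls 3 and 4 only, none of the 9 was called in WT mice, where 63 of all genes were. In TLR3-KO mice 2 of the 9 were then called, where 4108 of all genes were.

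**Figure D2:**
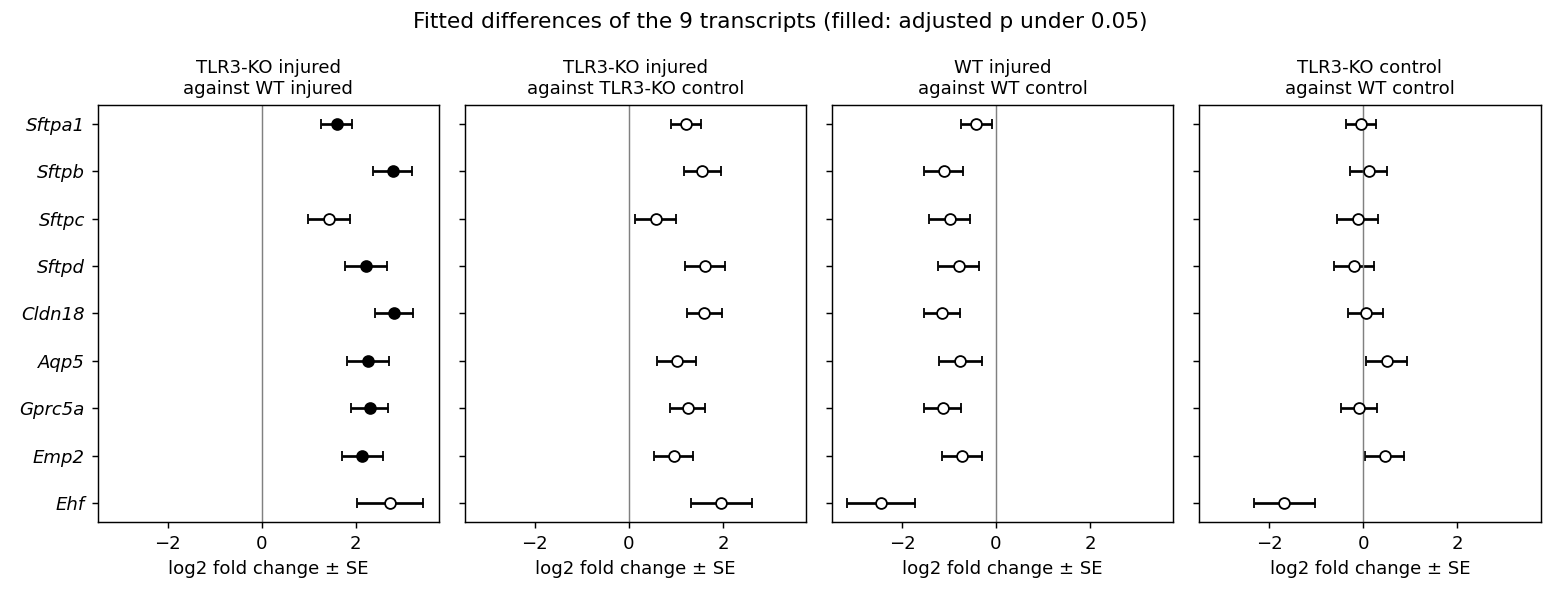
Fitted log2 fold changes of the 9 transcripts with 1 SE (horizontal axes; edgeR, 4 libraries per group) in 4 comparisons, with filled points where the adjusted p was under 0.05. The 7 filled points all stand in the comparison of TLR3-KO injured with WT injured, and the points lie right of 0 in TLR3-KO mice and left of 0 in WT mice when injured is set against control.

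In control mice 4 of the 9 transcripts were higher and 5 lower in TLR3-KO control than in WT control libraries, with a median log2 fold change of -0.04, against 0.04 over all genes. None was called, where 0.658% of all genes were (edgeR). Every transcript overlapped between the groups. TLR3-KO controls 1 to 3 held Xist, while the WT controls held at most 0.0503 CPM, so genotype and sex cannot be fully told apart here. Aqp5 had the highest value at 0.50 (SE 0.43, edgeR adjusted p = 0.532) and Ehf the lowest at -1.67 (SE 0.65, edgeR adjusted p = 0.184), which rests on 11 counts pooled over TLR3-KO control and 36 over WT control libraries. With the replicate number as a block, the number called stayed at 0.

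The difference between the pneumonia responses of the genotypes, TLR3-KO minus WT, was positive for all 9 transcripts, from 1.56 for Sftpc to 4.41 for Ehf on the log2 scale, with a median of 2.38 against -0.03 over all genes. Ehf passed the filter only through TLR3-KO injured and WT control libraries, which both enter this difference with a plus sign. The filter thus favoured a large positive value and a small p for Ehf, and its result lends no support. It was 2.75 for Cldn18 (SE 0.54), 2.68 for Sftpb (SE 0.57) and 2.42 for Sftpd (SE 0.61). None passed the adjustment, with edgeR adjusted p-values of 0.237 to 0.246, and neither did any of the 12455 genes (0%). All 9 had an unadjusted p under 0.05, against 8.57% of all genes in that direction. By DESeq2, 4 of the 9 were called (Sftpb, Sftpd, Cldn18 and Gprc5a) among 98 genes. With controls 1 and 2 only, the setting chosen after seeing the data, edgeR called 7, among 57 over all genes. With controls 3 and 4 only it called 0 of all genes. Since TLR3-KO controls 1 to 3 held Xist, sex enters this difference and cannot be fully told apart from the responses.

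The other genes listed for the epithelium did not all lie with the 9, and which cells gave their reads was not tested. Among genes that define type 2 cells (10 listed, 8 tested), 6 were higher and 2 lower in TLR3-KO injured than in WT injured libraries, with a median log2 fold change of 0.34 and none called. Abca3, the lipid transporter of lamellar bodies, lay at 70.3 ± 12.7 CPM in TLR3-KO injured and 57.1 ± 10.8 CPM in WT injured libraries, and Napsa, an aspartic protease that processes SP-B, at 42.2 ± 2.80 CPM in TLR3-KO injured and 43.9 ± 8.76 CPM in WT injured libraries (SD, n = 4 each). Their edgeR adjusted p-values were 0.542 and 0.827. In CPM, which is not scaled to gene length, Abca3 and Napsa stood above Sftpc in every group. Nkx2-1 lay at 0.737 ± 0.228 CPM in TLR3-KO injured and 1.72 ± 1.34 CPM in WT injured libraries (log2 fold change -1.23), and S100g and Egfl6 did not pass the filter. Lamp3, Slc34a2 and Cxcl15 had log2 fold changes of 1.23, 0.84 and 0.79, and Etv5 and Hc of 0.41 and 0.21. Of these, all but Etv5 were counted by few reads, at 0.175 to 0.328 CPM on average over all libraries. In the wider list of type 2 and surfactant metabolism genes, 15 of 23 tested were higher and 8 lower, with a median of 0.28 and none called. Lyz1, Fabp5, Cd36 and Ctsh, which macrophages also express, were its most abundant genes.

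Genes of type 1 cells (11 tested beside Aqp5, Gprc5a and Emp2) were higher for 9 and lower for 2, with a median log2 fold change of 0.99. Only Lmo7, a junction-associated LIM protein, was called, at 3.87 ± 1.89 CPM in TLR3-KO injured and 0.647 ± 0.225 CPM in WT injured libraries (log2 fold change 2.54, edgeR adjusted p = 0.0414). Ager, the receptor RAGE of type 1 cells, lay at 6.31 ± 3.01 CPM in TLR3-KO injured and 1.62 ± 0.502 CPM in WT injured libraries and just missed the threshold (log2 fold change 1.93, edgeR adjusted p = 0.0505). The most abundant genes of the list, Cav1 and Pdpn, were lower in TLR3-KO injured libraries, by log2 fold changes of -0.34 and -0.56, and were not called. Cav1 and Pdpn averaged 145 and 28.1 CPM over all libraries, against 3.02 CPM for Ager, and which cells gave these reads was not tested.

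Of 13 pan-epithelial genes tested beside Ehf, 11 were higher and 2 lower in TLR3-KO injured than in WT injured libraries, with a median log2 fold change of 1.05 and 2 called. Cldn3, a claudin, was measured at 2.93 ± 1.27 CPM in TLR3-KO injured and 0.469 ± 0.138 CPM in WT injured libraries (log2 fold change 2.61, edgeR adjusted p = 0.0231). St14, the membrane serine protease matriptase, lay at 2.33 ± 0.448 CPM in TLR3-KO injured and 0.741 ± 0.0917 CPM in WT injured libraries (log2 fold change 1.63, edgeR adjusted p = 0.00556). Krt8, Krt18 and Krt7, keratins of simple epithelia, had log2 fold changes of 1.81, 1.81 and 2.08 with edgeR adjusted p-values of 0.0610, 0.0737 and 0.0737. Krt19, Cdh1 and Epcam, the most abundant of this list, are also expressed by mouse alveolar macrophages and were not called. Krt19 held most of the summed level of the list, which lay at 628 to 752 CPM in TLR3-KO injured and 236 to 541 CPM in WT injured libraries without overlap. Lmo7, Cldn3, St14, Ager and the keratins were named after their values were seen.

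Airway genes were mostly lower, and none was called. Of 8 secretory and goblet cell genes tested, 2 were higher and 6 lower in TLR3-KO injured than in WT injured libraries (median log2 fold change -0.23), and of 6 genes of ciliated cells 1 was higher and 5 lower (median -0.56). Scgb1a1, the secretoglobin of club cells, lay at 2.19 ± 0.568 CPM in TLR3-KO injured and 5.33 ± 1.55 CPM in WT injured libraries, and Bpifa1, a secreted antimicrobial protein of the upper airways, at 24.2 ± 2.71 CPM in TLR3-KO injured and 31.5 ± 21.9 CPM in WT injured libraries. Of 8 genes of basal and squamous cells none passed the filter, and the mucin Muc5ac was listed at 0 in all 16 libraries.

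**Figure D3:**
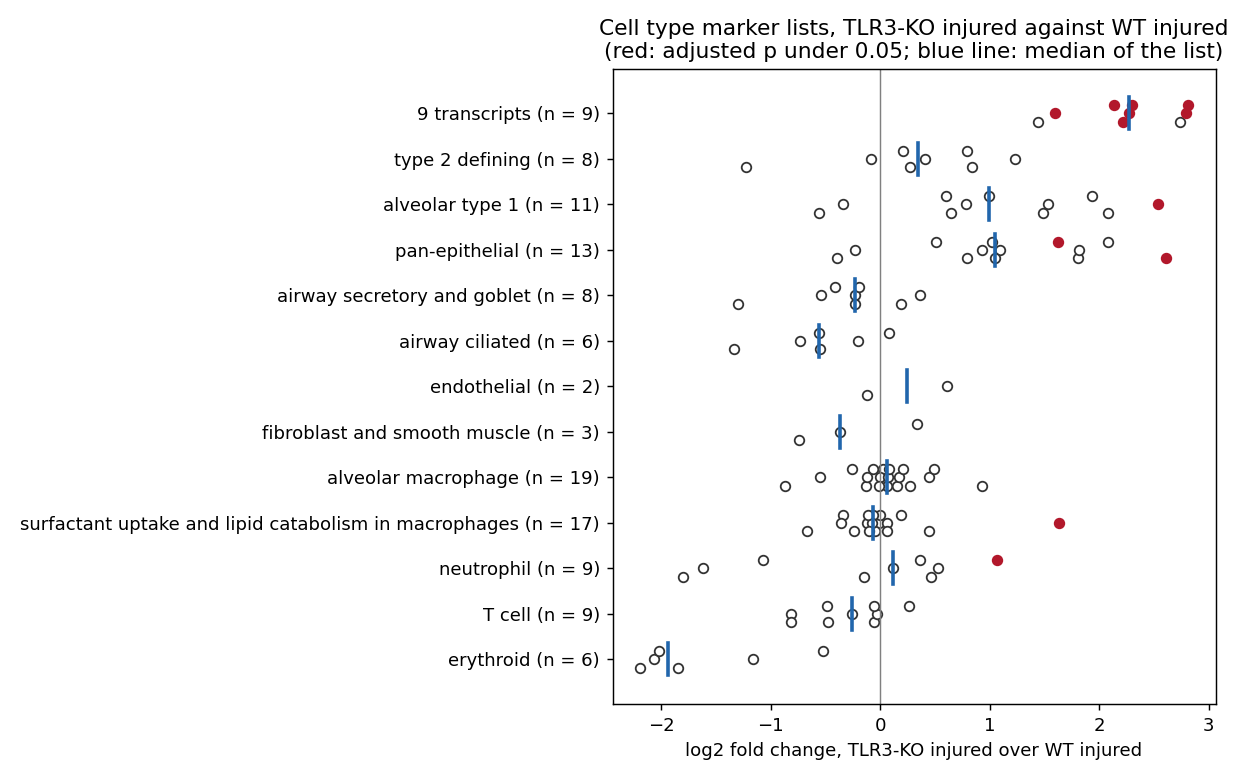
Log2 fold changes of single genes (points) in the lists of cell type markers, TLR3-KO injured over WT injured, with n the genes tested outside the 9 transcripts, red where the edgeR adjusted p was under 0.05 and a blue line at the median. The 9 transcripts have a median of 2.27, type 1 and pan-epithelial genes medians of 0.99 and 1.05, and airway lists medians of -0.23 and -0.56.

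Markers of other cells in the lavage were read beside these transcripts in each comparison, and their part in the results was not tested. Summed alveolar macrophage markers lay at 36823 to 39942 CPM in TLR3-KO injured and 33333 to 40272 CPM in WT injured libraries, with 12 of 19 tested higher, a median log2 fold change of 0.06 and none called. Neutrophil markers summed to 128 to 230 CPM in TLR3-KO injured and 91.1 to 311 CPM in WT injured libraries, with 5 of 9 higher, 4 lower and 1 called (Mmp8, log2 fold change 1.07). Erythroid markers were lower for 6 of 6, with none called, and their sums of 73.8 to 199 CPM in TLR3-KO injured and 331 to 709 CPM in WT injured libraries did not overlap. T cell markers were higher for 1 and lower for 8 of 9, B cell markers higher for 2 and lower for 2 of 4, with none called.

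Most marker genes of cells beneath the epithelium did not pass the filter. Of 8 endothelial genes 2 passed, 1 higher and 1 lower in TLR3-KO injured than in WT injured libraries. Emcn was listed at 0 throughout, and Vwf held most of the list's sum, at 60.9 ± 12.7 CPM in TLR3-KO injured and 65.0 ± 18.3 CPM in WT injured libraries. Of 8 fibroblast and smooth muscle genes 3 passed, 1 higher and 2 lower, and neither list had a call.

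Genes by which macrophages take up surfactant and break down its lipid had no common direction. Of 17 tested, 6 were higher and 11 lower in TLR3-KO injured than in WT injured libraries, with a median log2 fold change of -0.06. Lipa, which hydrolyses cholesteryl esters and triglycerides in lysosomes, lay at 1870.1 ± 130.2 CPM in TLR3-KO injured and 1898 ± 430 CPM in WT injured libraries. Msr1, the class A scavenger receptor, was the 1 gene called, at 135 ± 6.76 CPM in TLR3-KO injured and 42.9 ± 7.78 CPM in WT injured libraries (log2 fold change 1.63, edgeR adjusted p = 0.000111). It lies on chromosome 8, 5.81 Mb from Tlr3, the gene missing in the knockout mice.

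Across the 16 libraries the transcripts followed each other closely, Ehf excepted. Pearson's r of log2(CPM + 0.5) over the 36 pairs lay between 0.39 and 0.97 with a median of 0.88, as a description over libraries that share their groups. After centring on the group means, the libraries' values still correlated among the 8 transcripts without Ehf, at 0.47 to 0.91 with a median of 0.76 over 28 pairs. Ehf had r of 0.39 to 0.60 with the others at the level of all libraries.

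The genes whose profiles were most like Sftpc over the 16 libraries were Krt8 (r 0.90, Spearman's rho 0.90), Gas6, Col4a1, F3, Krt7, Ryk, Cdc42ep1, Mal2, Krt18 and Cyp2b10 (r down to 0.85). Those nearest to Emp2 were Krt8 (r 0.97), Ano1, Krt18, Krt7 and Cldn3, and those nearest to Gprc5a were Cldn3 (r 0.97), Krt18, Lmo7, Cyr61 and Krt8. Krt8 and Krt18, the paired keratins of simple epithelia, stood in all 3 sets. Krt8 stood at 5.46, 8.33, 9.91 and 3.78 CPM in TLR3-KO injured, 1.49, 2.48, 6.24 and 5.98 CPM in TLR3-KO control, 1.47, 2.46, 1.92 and 1.81 CPM in WT injured and 5.11, 3.13, 2.83 and 2.30 CPM in WT control libraries. Like Sftpc it was high in TLR3-KO injured and low in WT injured libraries, and TLR3-KO controls 3 and 4 lay above TLR3-KO controls 1 and 2.

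**Figure D4:**
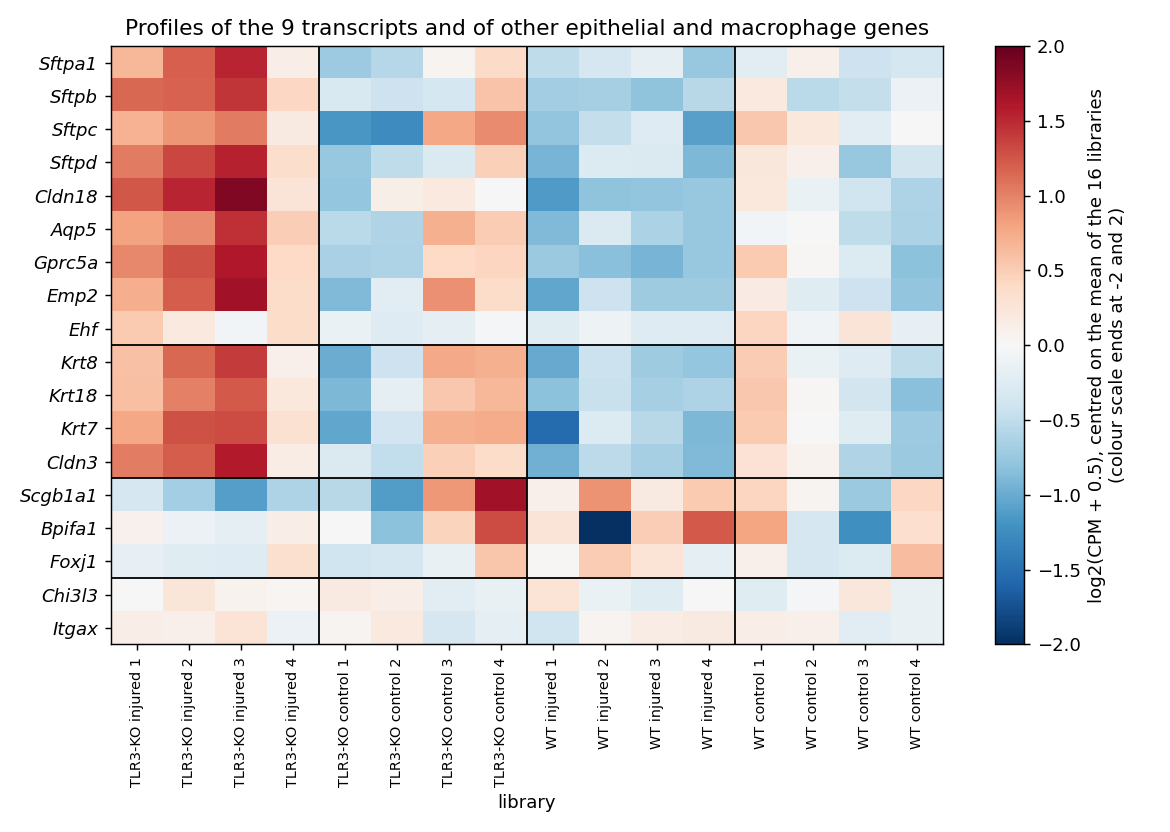
log2(CPM + 0.5) of the 9 transcripts (top block), of keratins and Cldn3, of airway genes and of 2 macrophage genes in the 16 libraries, centred on each gene's mean, with red above and blue below it. The keratins are above their means in all TLR3-KO injured and below them in all WT injured libraries, as Sftpc and Emp2 are, while Scgb1a1 and Bpifa1 are not, and the macrophage genes Chi3l3 and Itgax stay near their means.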

How the data were processed

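Macrophages from lavage were sequenced as TruSeq mRNA libraries with paired reads of 50 bases, per the labels' protocols. FastQC 0.11.3, TopHat2 2.0.13, Bowtie2 2.2.1, Cufflinks, Cuffdiff 2.1.1 and the build mm10 are named in the submitters' processing notes. The table deposited by the authors holds whole, unscaled counts for gene symbols, which its name ascribes to HTSeq. The HTSeq version, strand setting and annotation are not given in the sources used here. Titles and columns put 16 libraries in 4 groups, although the series text counts 15.

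The 9 members, the marker lists and the tests were chosen with earlier results of these data known. Genes were kept by filterByExpr at a minimum count of 10 (12455 kept, 10704 removed), scaled by TMM (factors 0.896 to 1.07) and fitted with 1 coefficient per group in edgeR 4.0.16 (R 4.3.3) by robust quasi-likelihood. The Benjamini-Hochberg adjustment ran over all tested genes, with calls at 0.05, and the biological coefficient of variation was 0.238. An SE is the size of a log2 fold change divided by the square root of F. CPM use raw library totals. The model was tested on simulated data. No 2 libraries of a group were copies (chi-square per degree of freedom 8.58 to 335).

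Named genes were the 9, the 10 genes most like Sftpc and the 5 most like Emp2 and Gprc5a by Pearson's r of log2(CPM + 0.5), and the 4 most abundant genes of a list where described. Whether replicate numbers pair libraries was checked by correlating departures from group means. At the same number r was 0.43 to 0.59 between the control genotypes, where each of 8 libraries was closest to its own number. Between TLR3-KO injured and TLR3-KO control libraries r was -0.05 to 0.33, and 6 of 8 were closest to their own number. Between WT injured and WT control libraries r was -0.26 to -0.13, with 0 of 8. Alternatives were RLE factors, DESeq2 1.42.0, limma 3.58.1 voom with equal weights, other filters, a fit of 2 groups, the replicate block, libraries left out, and, added after seeing the data, subsets of the controls and a fit without robust estimation. Gene positions came from GENCODE M21 (mm10) and promoter windows from RefSeq (GRCm38.p6). Other software was python 3.11.15, matplotlib 3.10.9, pandas 2.3.3 and numpy 2.4.6. Cuffdiff values were not used here.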

Additional observations from a re-analysis of the deposited data

Results flagged for a closer look

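In 8 of the 9 transcripts, all but Sftpa1, every TLR3-KO injured library lay above the mean of the TLR3-KO controls and every WT injured library below the mean of the WT controls. The fitted difference of the responses, TLR3-KO minus WT on the log2 scale, was 2.68 for Sftpb, 1.56 for Sftpc, 2.42 for Sftpd, 2.75 for Cldn18, 1.77 for Aqp5, 2.38 for Gprc5a, 1.68 for Emp2 and 4.41 for Ehf. The filter on low counts favoured these directions for Ehf. The test of the difference itself did not pass for any of them in edgeR (adjusted p-values 0.237 to 0.246), so these 8 opposite directions are not shown to differ between the genotypes.

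In 3 of the 36 combinations of transcript and group, 1 library lay apart from the other 3 by Dixon's criterion for 4 values, which chance meets in about 1 of 20. Sftpb was highest in TLR3-KO control 4, at 1.45 CPM against at most 0.569 CPM in the other TLR3-KO controls. Cldn18 was lowest in WT injured 1, at 0.466 CPM against at least 0.718 CPM in the other WT injured libraries. Ehf was highest in WT injured 2, at 0.0829 CPM, which is 3 counts against 1 count in each of the others.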

How the results depend on the processing

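The 36 mean levels moved by less than 1 SD under CPM on TMM-scaled totals. Of the 9 log2 fold changes of TLR3-KO injured against WT injured, none changed sign under 16 alternatives. Since these libraries did not overlap for any of the 9, refitting or leaving out 1 library could hardly change a sign. Sftpb and Cldn18 stayed called in all of the alternatives. Requiring 1 CPM or more in 4 libraries removed Ehf, as did the filter in the fit of 2 groups. Ehf therefore has a value under 14 of these 16 alternatives. The number called there was 7, and was 8 with DESeq2 and in the fit of 2 groups (both adding Sftpc), 5 with voom (without Sftpa1 and Emp2), and 2 with the replicate block, although the numbers do not pair these libraries (r -0.30 to 0.07 at the same number, 0 of 8 libraries matching their own). Leaving out each library in turn gave 2 to 7. In TLR3-KO injured against control, 0 became 5 with DESeq2, 2 with the 1 CPM filter, 1 without robust estimation, 4 with controls 1 and 2 only, 2 with controls 3 and 4 only, and 0 to 2 leaving out each library. With controls 1 and 2 only the counts called were 6 in WT, 1 (Sftpc) between the control genotypes and 7 for the difference of the responses, which DESeq2 put at 4. The block changed no other count of the 9.

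Signs were unstable near 0. In TLR3-KO injured against control, Sftpc was -0.18 without the TLR3-KO controls that hold Xist (1 to 3) and -0.15 with controls 3 and 4 only. Between the control genotypes, the values without those libraries were 0.49 for Sftpa1, 0.63 for Sftpc, 0.61 for Sftpd and 0.36 for Gprc5a. With controls 3 and 4 only they were 0.64, 0.97, 0.94 and 1.06 for the same genes, and with controls 1 and 2 only -0.55 for Sftpb, -0.52 for Cldn18, -0.97 for Aqp5 and -0.74 for Emp2. Leaving out each library gave -0.28 to 0.13 for Sftpa1, -0.35 to 0.47 for Sftpb, -0.50 to 0.17 for Sftpc, -0.62 to 0.058 for Sftpd, -0.13 to 0.33 for Cldn18 and -0.33 to 0.27 for Gprc5a. The cause was not tested.

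Over all genes, TLR3-KO injured against WT injured had 75 calls in edgeR, 444 in DESeq2, 154 in the fit of 2 groups, 21 with the block and 16 to 439 leaving out each library. TLR3-KO injured against control had 136, with 1031 in DESeq2, 44 without a filter, 226 with the 1 CPM filter, 33 in the fit of 2 groups, 11 with the block and 0 to 1238 leaving out each library. WT injured against control had 0, with 181 in DESeq2. The control genotypes had 82, with 781 in DESeq2, 147 with RLE factors, 10 in the fit of 2 groups and 31 with the block. With controls 1 and 2 only, all-gene calls were 83 in TLR3-KO, 1631 in WT, 237 between the control genotypes and 57 for the difference of the responses, and with controls 3 and 4 only 4108, 63, 20 and 0. Depth limits Ehf most, with 1 to 20 counts per library.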

Other observations

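Shares of the transcripts within their own sum varied by gene and group. Gprc5a took 14.0 to 14.5% of the summed counts of the 9 transcripts in TLR3-KO injured, 11.7 to 15.4% in TLR3-KO control, 8.54 to 14.3% in WT injured and 8.62 to 15.6% in WT control libraries. Cldn18 took 8.70 to 12.4% in TLR3-KO injured, 5.50 to 16.8% in TLR3-KO control, 5.29 to 8.95% in WT injured and 6.57 to 8.34% in WT control libraries, and TLR3-KO control 2 was the library at 16.8%.

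Chi3l1 and Lcn2, secreted proteins that type 2 cells and also macrophages and neutrophils make, were the genes of the type 2 and surfactant metabolism list (23 tested) called in TLR3-KO injured against TLR3-KO control libraries, where 1.09% of all genes were called. They are named after their values were seen. Chi3l1 lay at 22.5 ± 18.5 CPM in TLR3-KO injured and 0.610 ± 0.469 CPM in TLR3-KO control libraries, and Lcn2 at 24.7 ± 22.0 CPM in TLR3-KO injured and 0.712 ± 0.325 CPM in TLR3-KO control libraries (SD, n = 4 each; edgeR adjusted p = 0.0425 for both). Both were also higher in WT injured than in WT control libraries, Chi3l1 at 10.9 ± 11.2 against 0.999 ± 0.875 CPM and Lcn2 at 17.1 ± 18.6 against 2.09 ± 1.32 CPM, and neither was called there. The difference of the responses was not called for either (edgeR adjusted p = 0.467 and 0.383).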
